A study of Mus musculus with 21 samples.

Results

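The 10 genes described here form a core of the Notch pathway and of the arterial program of blood vessels in the mouse embryo. They are the ligands Dll1, Dll4, Jag1 and Jag2, the receptors Notch1 and Notch4, the target transcription factors Hey1, Hey2 and Hes1, and the arterial gap junction gene Gja4. Their rows were found by symbol among 23827 gene rows per sample, and each symbol had 1 row. All tissue was taken at embryonic day 14.5, and every embryo carried 1 copy of an inactive Gt(ROSA)26Sor-mCherry-Rpl10a allele, which Cre recombinase switches on so that the ribosomes of the recombined cells can be pulled down with their RNA (translating ribosome affinity purification, TRAP). The brain EC translatome and the kidney EC translatome came from forebrain and kidney of Cdh5CreERT2+/-;Gt(ROSA)26Sor-mCherry-Rpl10a+/- embryos, in which tamoxifen given to the mother activates Cre under the promoter of the endothelial gene Cdh5. The Emx1-lineage translatome came from forebrain of Emx1Cre+/-;Gt(ROSA)26Sor-mCherry-Rpl10a+/- embryos, whose Cre marks neural cells of the dorsal telencephalon. The brain translatome and kidney translatome were pulled down from Sox2Cre+/-;Gt(ROSA)26Sor-mCherry-Rpl10a+/- embryos, in which all derivatives of the epiblast recombine, and the brain transcriptome and kidney transcriptome are total RNA of the same Sox2Cre tissues. Each of the 7 groups had 3 samples, 21 in all.

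In Notch signaling, a ligand of the Delta-like or Jagged family on 1 cell binds a Notch receptor on its neighbor, the receptor is cut by ADAM proteases and gamma-secretase, and its inner part enters the nucleus, joins RBPJ and switches on Hes and Hey repressors. In vessels, Dll4 and Notch1 restrain tip cells during sprouting, and Notch activity marks and maintains arteries. In the embryonic forebrain the same pathway, with Dll1 as a ligand and Hes1 and Hes5 as targets, keeps neural progenitors undifferentiated. In the embryonic kidney, Jag1, Dll1 and Notch2 take part in the patterning of the nephron.

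The samples held between 21760652 and 79231692 reads on gene rows, and the kidney translatome was the shallowest group, with 21760652 to 24605124. The fewest reads on any of the 10 genes in any sample were the 27 of Gja4 in 1 Emx1-lineage sample. The summed level of 10 endothelial markers was 3422 to 3590 RPKM (reads on a gene per kilobase of its length, scaled to the mapped reads of the sample) in the brain EC translatome and 2284 to 2722 in the kidney EC translatome, against 189.1 to 211.6 in the brain translatome, 428.3 to 457.8 in the kidney translatome and 19.95 to 23.4 in the Emx1-lineage translatome. None of those 10 markers was at 0 in any group. The endothelial samples also held RNA of other cells. The summed level of 6 neuron markers in the brain EC translatome was 20.2% of that in the brain translatome, and that of 9 mural markers was 57.7%. In the kidney EC translatome the summed markers stood at 12.4% of the kidney translatome for nephron progenitors, 40.1% for the early nephron, 47.2% for kidney stroma and 73.1% for mural cells. The early nephron markers went both ways, with 2 of 5 called higher and 3 lower in the test used below. Summed megakaryocyte markers stood at 210%, with 1 of 3 called higher and 2 not called. Those of macrophages stood at 22.3% and those of red blood cells at 33.0%. Driver line, tamoxifen and sequencing lane differed together between the endothelial groups and their organ references, so these cannot be told apart from the cell type. By the study's sample list, brain EC and kidney EC libraries were also on different lanes, and so were the brain and kidney translatome libraries. Lane thus cannot be told apart from organ in either comparison. The Emx1 lineage and the brain translatome differed in driver line, which cannot be told apart from the lineage. Brain EC and the Emx1 lineage differed in driver line and tamoxifen, which cannot be told apart from the cell type. The allele derives from 1 targeted clone, and embryos were chosen by their fluorescence.

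Dll4, a Delta-like ligand of sprouting vessels, was highest in the endothelial samples of both organs. Its level was 50.32, 49.47 and 56.03 RPKM in the 3 brain EC samples and 41.04, 45.16 and 39.38 RPKM in the 3 kidney EC samples. The brain translatome held 3.498, 3.735 and 3.152 RPKM, the kidney translatome 5.856, 5.606 and 7.174, and the Emx1-lineage translatome 1.286, 1.442 and 1.272. The endothelial groups overlapped with no other group, and the brain EC samples all lay above the kidney EC samples.

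Jag2, a Jagged ligand, had the same first place but a wider gap between organs. The brain EC samples held 55.15, 62.34 and 54.07 RPKM and the kidney EC samples 17.76, 24.61 and 19.43, against 9.045, 8.745 and 8.213 in the brain translatome and 4.187, 4.075 and 4.494 in the kidney translatome. The groups did not overlap, and the kidney EC samples still lay above every sample of whole forebrain or kidney, where the highest was 13.54 RPKM in the brain transcriptome.

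Jag1, the ligand used in nephron patterning and in vessels, had its highest levels in the kidney as a whole. It reached 38.17, 36.53 and 40.95 RPKM in the kidney transcriptome and 26.14, 26.78 and 27.27 in the kidney translatome. The brain EC samples, with 21.11, 21.39 and 24.12 RPKM, overlapped with the kidney EC samples, with 19.63, 20.36 and 22.51. In the brain translatome Jag1 was at 4.489, 4.273 and 4.194 RPKM. Thus the endothelial samples of the organs overlapped, while the translatomes of the whole organs did not.

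Dll1, the ligand of neural progenitors, ran the other way. It was highest in the brain transcriptome, with 28.57 ± 1.61 RPKM (mean ± SD, n = 3), and in the Emx1-lineage translatome, with 26.4 ± 0.967, and these neighbors overlapped. The brain translatome followed with 22.01, 21.44 and 19.8 RPKM. The brain EC samples were the lowest of all groups, with 9.471, 9.27 and 8.843 RPKM. The kidney EC samples (13.08, 12.38 and 11.65 RPKM) overlapped with the kidney translatome (10.94, 14.35 and 12.03).

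Notch4, the receptor known for its endothelial expression, followed Dll4 closely. It was at 48.84, 50.21 and 55.61 RPKM in the brain EC samples and at 38.5, 42.69 and 40.22 in the kidney EC samples. The brain translatome held 3.217, 3.118 and 2.817 RPKM, the kidney translatome 6.758, 6.408 and 7.263, and the Emx1-lineage translatome 1.078, 1.14 and 1.049. The endothelial groups did not overlap with each other or with the rest.

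Notch1, the receptor shared by neural and endothelial cells, was far less restricted. The kidney EC samples held 34.73, 34 and 33.16 RPKM and the brain EC samples 28.1, 31.29 and 28.84, but total RNA of the brain held 33.99, 29.41 and 30.98. The endothelial samples were thus not above brain total RNA. The ribosome-bound RNA of the whole forebrain was lowest, at 12.54, 12.78 and 11.43 RPKM, with the Emx1-lineage samples at 13.89, 14.25 and 12.87 and the kidney translatome at 14.93, 14.65 and 15.29.

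Hey1, a repressor induced by Notch, was present in every group, and its order was led by brain EC (46.58, 45.86 and 47.23 RPKM), kidney EC (37.52, 40.5 and 38.01) and the kidney transcriptome (34.9, 36.62 and 36.43). The lowest groups were the brain translatome (21.38, 20.44 and 21.37 RPKM) and the brain transcriptome (20.42, 20.42 and 19.92). Hey1 was therefore highest in endothelial samples without being restricted to them.

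Hes1, the broadly used Hes repressor, differed between the whole organs and not detectably between their endothelial samples. The kidney translatome held 38.51, 41.37 and 37.6 RPKM and the kidney EC samples 33.2, 35.59 and 32.06. The brain EC samples, at 31.16, 36.88 and 35.47 RPKM, overlapped with kidney EC and stood above the brain translatome, at 16.65, 14.39 and 12.91. The Emx1-lineage samples lay between, at 23.02, 25.64 and 21.2 RPKM.

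Hey2, the Hey repressor linked to arteries and to the heart, was the lowest of the 10 genes in the endothelial samples. It was at 3.419, 4.218 and 4.903 RPKM in brain EC and at 3.435, 3.257 and 3.505 in kidney EC. The highest level was in the kidney translatome, at 5.897, 6.358 and 6.776 RPKM. The brain transcriptome, brain EC, brain translatome, Emx1-lineage and kidney EC groups each overlapped with the next in that order. Farther apart in it, the brain transcriptome samples all lay above the Emx1-lineage and kidney EC samples, and the brain translatome samples above the kidney EC samples.

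Gja4, which encodes a connexin of arterial endothelium, had the widest range. The brain EC samples held 217.6, 202.3 and 199.1 RPKM, the kidney EC samples 85.01, 94 and 88.64, and the Emx1-lineage samples 0.6726, 0.5046 and 0.75. The brain translatome held 13.03, 13.8 and 12.99 RPKM and the kidney translatome 19.43, 17.84 and 18.74. No neighbors in the order of the 7 groups overlapped.

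**Figure D1:**
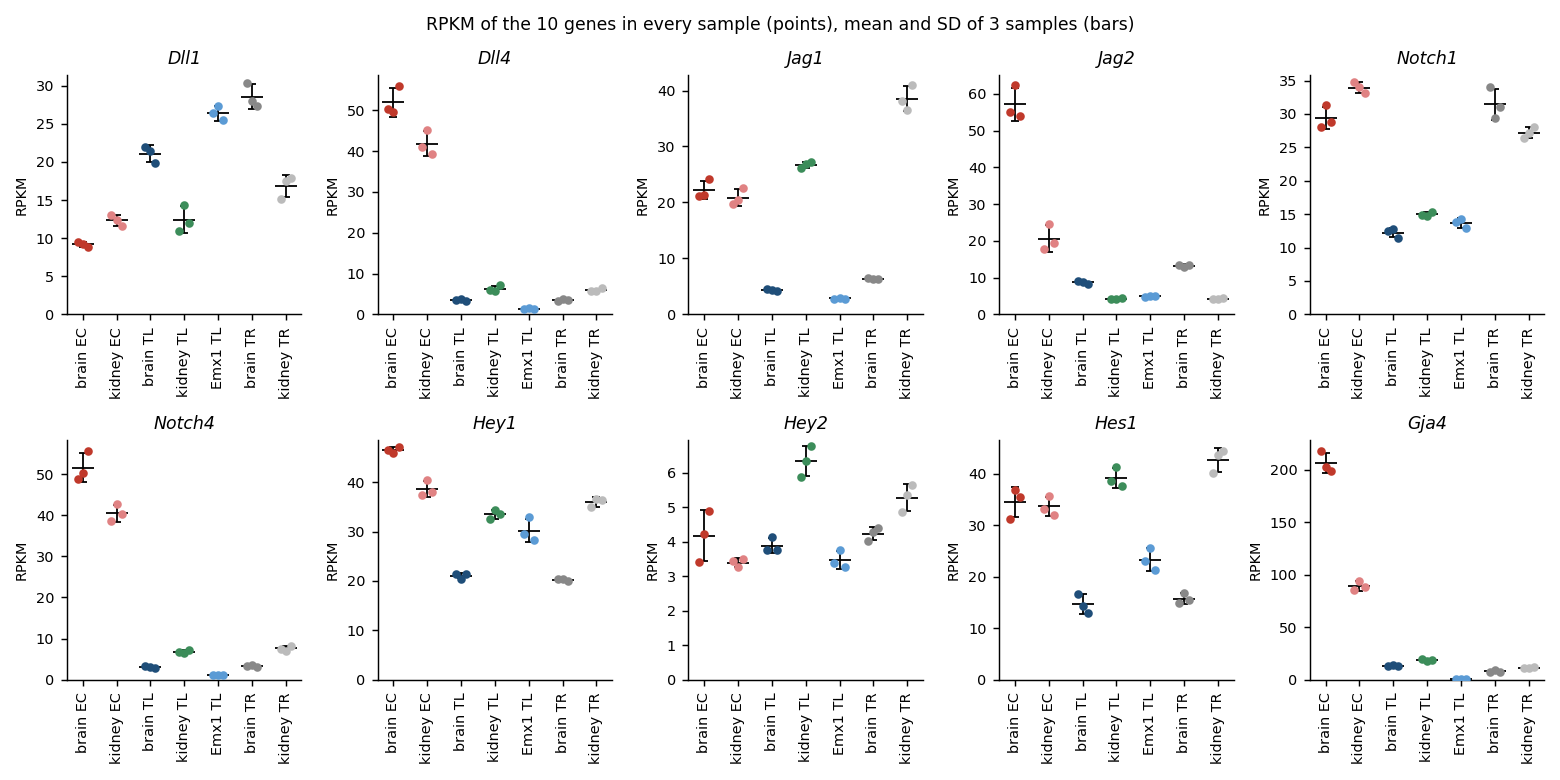
RPKM (vertical axis, linear, starting at 0) of each of the 10 genes in all 21 samples, by group (EC, endothelial translatome; TL, whole-organ translatome; TR, whole-organ transcriptome; Emx1 TL, Emx1-lineage translatome). Points are samples, and bars are the mean and SD of 3 samples. Dll4, Jag2, Notch4 and Gja4 sit highest in the endothelial groups of both organs, Dll1 sits lowest in brain EC at 8.843 to 9.471 RPKM, and Jag1 and Hes1 are as high or higher in the whole kidney.

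Because RPKM is a level per length, the receptors could be set against each other. Of the summed RPKM of Notch1, Notch2, Notch3 and Notch4, Notch4 made up 49.06 ± 0.815% (SD, n = 3) in brain EC and 41.56 ± 2.32% in kidney EC, against 8.266 ± 0.028% in the brain translatome, 7.973 ± 0.615% in the kidney translatome and 3.258 ± 0.0799% in the Emx1 lineage. Notch1 was the second endothelial receptor, with 28.05 ± 2.11% in brain EC and 34.89 ± 1.73% in kidney EC. Notch3, a receptor known from mural cells and neural progenitors, led in the translatomes of the whole organs, with 40.23 ± 2.37% in the brain and 50.69 ± 3.59% in the kidney, and made up 14.43 ± 1.98% and 12.57 ± 2.15% of the brain and kidney endothelial sums. In total RNA the leading receptor was Notch1 in the brain (48.3 ± 0.535%, with Notch3 at 21.95 ± 0.797%) and Notch2 in the kidney (33.41 ± 0.979%, with Notch3 at 30.77 ± 1.5%). In level, Notch3 was at 15.21 RPKM in brain EC and 14.88 in the brain translatome. It was at 12.28 in kidney EC and 43.5 in the kidney translatome. The summed level of 9 mural markers was 30.43 to 34.82 RPKM in brain EC and 47.6 to 66.0 in the brain translatome. In kidney EC it was 123.2 to 134.4, and in the kidney translatome 169.0 to 185.2. Against the organ translatome, 2 of the 9 markers were higher and 5 lower in brain EC, and 2 higher and 6 lower in kidney EC. No mural marker was at 0, and their part in the Notch3 share was not tested.

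The ligands gave a different make-up in each setting. In brain EC, Jag2 (39.74 ± 2.93%) and Dll4 (36.09 ± 2.15%) made up most of the summed RPKM of Dll1, Dll3, Dll4, Jag1 and Jag2. In kidney EC, Dll4 alone led with 43.75 ± 1.28%, and Jag1 (21.84 ± 2.2%) and Jag2 (21.43 ± 2.35%) had like shares. The whole forebrain was dominated by the Delta-like ligands of neurogenesis, Dll1 with 41.78 ± 0.298% and Dll3 with 25.62 ± 0.779% of the brain translatome, and in the Emx1 lineage Dll1 had a share of 56.47 ± 0.475%. In the kidney translatome Jag1 led with 53.7 ± 1.35%. Endothelial, neural and renal samples thus each had a different leading ligand.

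**Figure D2:**
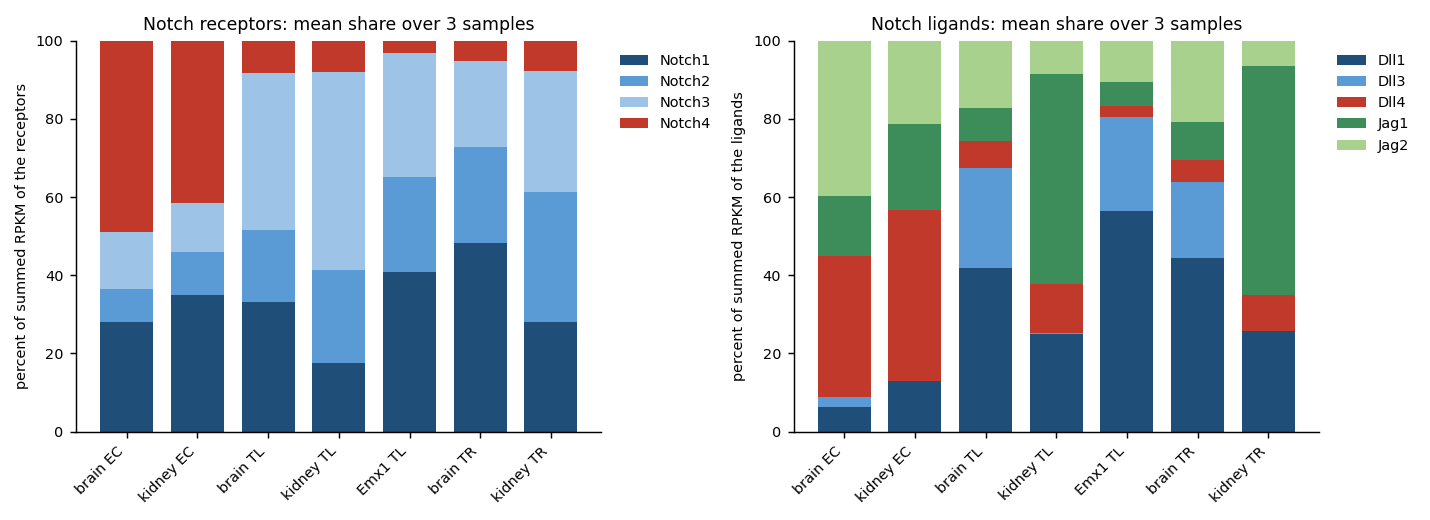
Mean share over 3 samples (vertical axis, percent of summed RPKM, from 0 to 100) of each receptor (left) and ligand (right) in the 7 groups. Notch4 takes 49.06% of the receptor sum in brain EC and 41.56% in kidney EC and 8.266% or less in every other group. Jag2 and Dll4 lead the ligands in brain EC, Dll4 in kidney EC, Dll1 in neural samples and Jag1 in the kidney translatome.

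Endothelial use in the forebrain was tested as brain EC translatome against brain translatome (edgeR quasi-likelihood test on read counts, Benjamini-Hochberg adjusted over 19103 rows, called at an adjusted p under 0.001). Notch4 was 20.6-fold higher in brain EC, with a log2 fold change of 4.37 ± 0.09 (SE, adjusted p = 5.7e-13). Gja4 (4.25 ± 0.08, adjusted p = 4.8e-13) and Dll4 (4.20 ± 0.09, adjusted p = 6.2e-13) had similar log2 fold changes, followed by Jag2 (3.01 ± 0.08) and Jag1 (2.65 ± 0.08). Notch1 (1.55 ± 0.07), Hes1 (1.52 ± 0.10) and Hey1 (1.43 ± 0.06) rose less. Hey2 was not called (0.39 ± 0.13, adjusted p = 0.018), and Dll1 was lower, with a log2 fold change of -0.91 ± 0.07 (adjusted p = 8.8e-08).

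In all, 8 of the 10 genes were higher in brain EC, in a comparison where 24.8% of all rows were called higher, and 1 was lower, where 21.4% of rows were. Their median log2 fold change was 2.10, against -0.01 over all rows. The rise was less than that of the endothelial markers as a list, all 10 of which were higher with a median of 4.54. Notch4, Gja4 and Dll4 came nearest to that median. Scaling by total counts in place of TMM shifted the median of all rows by -0.30 and turned the share of higher calls among all called rows from 53.7% to 36.1%, and the 10 genes kept their calls.

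Shares of a level, here and elsewhere in the text, are ratios of RPKM without the TMM scaling of the tests. They can thus differ from the fold changes. Dll1 at 9.195 ± 0.321 RPKM in brain EC was 43.6% of its level in the brain translatome. That share lay above the 26.0% of Dll3, a Delta-like ligand of newborn neurons, and above the 20.2% of the summed neuron markers. The summed level of 6 neural progenitor markers was 108% of the brain translatome, with Vim and Nes, which endothelial cells also express, higher in brain EC and Eomes, Pax6, Fabp7 and Sox2 lower. Hes5, a Notch target of neural progenitors, and Hes6, a Hes family member of differentiating neurons, are named here after their values were seen and stood at 26.5% and 26.4%. How much of each level came from neural RNA in the endothelial samples was not tested.

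Among 36 other genes of the pathway, 17 were higher in brain EC, where 24.8% of all rows were, and 10 lower, where 21.4% were. Their median log2 fold change was 0.28, and total counts gave 11 higher and 14 lower. The sheddases that cut Notch were among those that rose most, Adam10 by a log2 fold change of 1.98 ± 0.07 and Adam17 by 1.73 ± 0.08, with the Notch inhibitor Numb (1.68 ± 0.08) and the Fringe glycosyltransferase Lfng (1.55 ± 0.07). Notch2 was higher (0.69 ± 0.07), and Notch3 was not called (0.32 ± 0.12, adjusted p = 0.029). Lower were the noncanonical ligand Dlk1 (-2.05 ± 0.09), the Deltex family gene Dtx3 (-1.78 ± 0.07) and Dll3 (-1.65 ± 0.09). The Numb-like gene Numbl was also lower, at 9.664 RPKM in brain EC and 47.19 in the brain translatome (adjusted p = 3.0e-10). All 6 neuron markers were lower as well, and their part in these falls was not tested.

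Of 9 other arterial genes, 8 were higher in brain EC, where 24.8% of all rows were, with a median log2 fold change of 4.28. Gja5, which encodes another arterial connexin, rose by 4.71 ± 0.11, the Sox17 transcription factor by 4.49 ± 0.09, Depp1 by 4.47 ± 0.16 and the receptor gene Acvrl1 by 4.44 ± 0.08. Efnb2, the classic arterial ephrin, which is named here after its values were seen, was not called in the forebrain (0.08 ± 0.07, adjusted p = 0.34), where its mean was 52.06 RPKM in brain EC and 60.04 in the brain translatome. In the Emx1 lineage Efnb2 was at 83.42 RPKM.

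In the kidney the same test, kidney EC translatome against kidney translatome, ranked Dll4 first. Dll4 was higher by a log2 fold change of 3.11 ± 0.10 (SE, adjusted p = 1.0e-09), Notch4 by 2.93 ± 0.07 (adjusted p = 3.8e-10), Jag2 by 2.63 ± 0.12 (adjusted p = 1.2e-08), Gja4 by 2.61 ± 0.06 (adjusted p = 3.8e-10) and Notch1 by 1.54 ± 0.06 (adjusted p = 3.8e-09). Hey1 was higher by 0.56 ± 0.06 (adjusted p = 7.6e-06) and was no longer called with total counts (0.19, adjusted p = 0.016). Jag1, Hes1 and Dll1 were not called. Jag1 was at a log2 fold change of 0.00 ± 0.07 (adjusted p = 0.97), Hes1 at 0.13 ± 0.07 (adjusted p = 0.11) and Dll1 at 0.35 ± 0.10 (adjusted p = 9.1e-03).

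Thus 6 of the 10 genes were higher in kidney EC, where 16.7% of all rows were, and 1 was lower, where 15.0% were. The lower gene, Hey2 (-0.54 ± 0.10, adjusted p = 8.1e-04), lay close to the threshold and was lost whenever any 1 of the 6 samples was left out. The all-row median moved by -0.41 with total counts, which cut the share of higher calls from 52.7% to 21.7%. On that scale the log2 fold changes of Dll1 and Hes1 turned negative (-0.02 and -0.23), and Jag1 was called lower (-0.37, adjusted p = 3.5e-04), so the sign of these 3 rests on the scaling. All 10 endothelial markers were higher, with a median of 2.98.

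Of the 36 other pathway genes, 9 were higher in kidney EC, where 16.7% of all rows were, and 11 lower, where 15.0% were. Total counts gave 4 higher and 17 lower. Against the kidney transcriptome 7 were lower, where 18.4% of rows were. Mfng, another Fringe, rose by 2.66 ± 0.07, Numb by 1.13 ± 0.07, the Notch feedback gene Nrarp by 1.07 ± 0.07 and Adam10 by 0.68 ± 0.06. Heyl (-2.13 ± 0.12), Dtx1 (-2.06 ± 0.14), Dlk1 (-1.59 ± 0.27) and Notch3 (-1.47 ± 0.14) were lower, as was the nephron receptor Notch2 (-0.57 ± 0.09), and Dll3 was not called (-3.02 ± 0.78, adjusted p = 6.6e-03). All 9 arterial genes were higher, led by Depp1 (2.89 ± 0.08), Gja5 (2.86 ± 0.08), Sox17 (2.74 ± 0.08) and Acvrl1 (2.49 ± 0.07), and here Efnb2 was among them (1.26 ± 0.07, adjusted p = 1.0e-07).

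**Figure D3:**
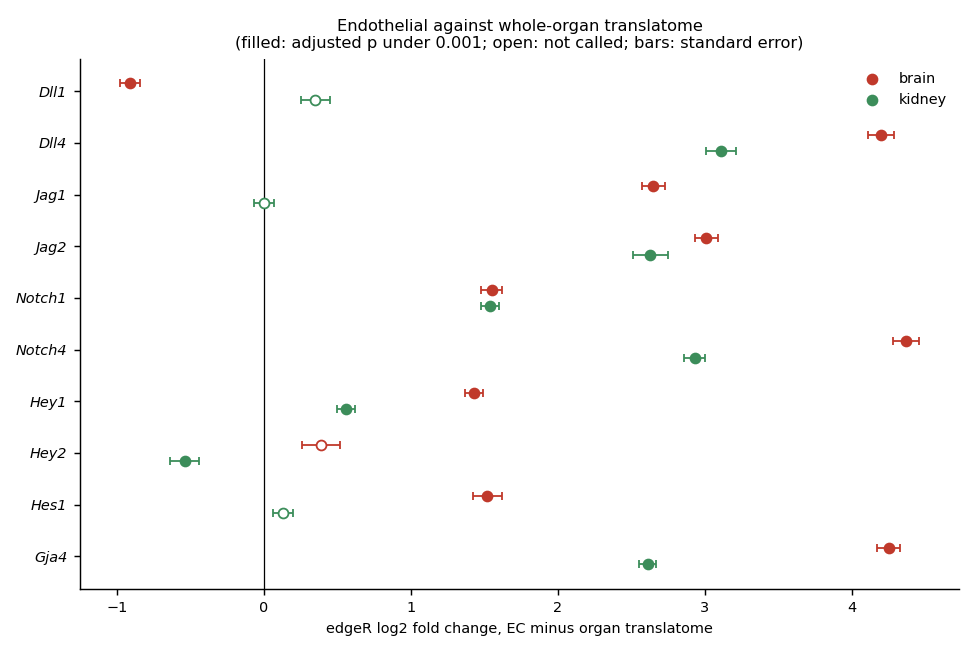
Log2 fold change of each of the 10 genes in endothelial against whole-organ translatome (horizontal axis; edgeR, 3 against 3 samples) in forebrain (red) and kidney (green). Bars are the standard error, filled points are called at an adjusted p under 0.001 and open points are not. Notch1 coincides in the organs (1.55 and 1.54), while Jag1 is at 2.65 in the forebrain and 0.00 in the kidney, and Dll1 lies below 0 in the forebrain.

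Whether endothelial enrichment differed between organs was tested as an interaction over the 12 samples of these 4 groups. The brain enrichment exceeded that of the kidney for 7 of the 10 genes, where 16.5% of all rows were called in that direction, and fell short of it for Dll1, where 8.6% were. The difference in log2 fold change was greatest for Jag1 (2.68 ± 0.10, SE, adjusted p = 3.4e-12), followed by Gja4 (1.66 ± 0.09), Notch4 (1.47 ± 0.10), Hes1 (1.41 ± 0.13) and Dll4 (1.12 ± 0.13, adjusted p = 2.0e-06). Hey2 (0.96 ± 0.17, adjusted p = 2.2e-04) and Hey1 (0.90 ± 0.07) followed, and Dll1 differed by -1.23 ± 0.12 (adjusted p = 3.7e-07). Jag2 (0.41 ± 0.14, adjusted p = 0.022) and Notch1 (0.04 ± 0.09, adjusted p = 0.80) were not called. The 10 endothelial markers were all greater in the forebrain as well, with a median difference of 1.54, while the all-row median was 0.15. Jag1 and Gja4 lay above the marker median. The level of Jag1 differed between the organ references (4.319 and 26.73 RPKM) and not detectably between the endothelial samples.

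The endothelial samples were then compared directly, brain EC against kidney EC. Jag2 was higher in brain EC by a log2 fold change of 1.52 ± 0.11 (SE, adjusted p = 6.0e-07) and Gja4 by 1.25 ± 0.07 (adjusted p = 6.8e-08). These calls held when any 1 sample was left out. Notch4 (0.39 ± 0.07, adjusted p = 9.3e-04) and Hey1 (0.31 ± 0.06, adjusted p = 1.0e-03) were just past the threshold, and Dll1 was lower (-0.38 ± 0.07, adjusted p = 7.9e-04). The last 3 calls were lost when any 1 of the 6 samples was left out, and with the replicate number as a block Notch4 (adjusted p = 1.1e-03) and Hey1 (adjusted p = 2.1e-03) were lost while Dll1 was kept (adjusted p = 9.3e-04).

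In total, 4 genes were higher in brain EC, where 20.1% of all rows were, and 1 was lower, where 16.9% were. The block left 2 higher and 1 lower. Dll4 was at 0.36 ± 0.07 (adjusted p = 1.7e-03), Jag1 at 0.14 ± 0.08, Hey2 at 0.34 ± 0.14, Hes1 at 0.08 ± 0.08 and Notch1 at -0.16 ± 0.07, none of them called. Jag2 and Gja4 were therefore the calls among these genes that stayed when any 1 sample was left out. Such fits hold fewer samples, so the lost calls near the threshold do not show that a difference rested on 1 sample. DESeq2 called 5 higher and 1 lower, and 1 fit of 21 samples called 7 higher and 0 lower. All 6 neuron markers were higher in brain EC, and 4 of 5 early nephron markers were lower. The endothelial markers were mostly not called, with 3 of 10 higher and 1 lower.

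Among the 36 other pathway genes 15 were higher in brain EC, where 20.1% of all rows were, and 4 lower, where 16.9% were. Of those with a mean of at least 5 RPKM in brain EC or kidney EC, the ones higher by the most, Dtx1 (4.05 ± 0.14), Dtx4 (2.74 ± 0.08), Hes5 (1.57 ± 0.13) and Lfng (1.46 ± 0.07), were also higher in the brain translatome than in the kidney translatome, except Lfng (-0.33 ± 0.07 there). Dll3 was higher by 7.68 ± 0.34, from 3.37 RPKM in brain EC, and Notch2 (-0.23 ± 0.10) and Notch3 (0.35 ± 0.16) were not called. Mib1 (-0.70 ± 0.13), a ubiquitin ligase that activates ligands, Pofut1 (-0.41 ± 0.08) and Itch (-0.39 ± 0.06) were lower. Arterial genes went both ways, with Bmx (1.63 ± 0.15), Acvrl1 (1.45 ± 0.07), Cxcr4 (0.62 ± 0.07) and Sox17 (0.53 ± 0.08) higher and Efnb2 (-0.75 ± 0.07), Depp1 (-0.53 ± 0.07) and Gja5 (-0.52 ± 0.09) lower in brain EC. The gap junction genes Gja4 and Gja5 thus moved in opposite directions between the organs.

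Neural use was tested as Emx1-lineage against brain translatome. Hes1 was higher in the lineage by a log2 fold change of 0.71 ± 0.09 (SE, adjusted p = 1.2e-05), Hey1 by 0.57 ± 0.06 (adjusted p = 1.6e-06) and Dll1 by 0.38 ± 0.05 (adjusted p = 2.5e-05). Gja4 fell by 4.27 ± 0.11 on the log2 scale (adjusted p = 1.0e-12), Notch4 by 1.44 ± 0.08, Dll4 by 1.33 ± 0.10, Jag2 by 0.76 ± 0.06 and Jag1 by 0.56 ± 0.06. Notch1 (0.21 ± 0.05, adjusted p = 4.1e-03) and Hey2 (-0.11 ± 0.09, adjusted p = 0.34) were not called. Hence 3 genes were higher, where 9.2% of all rows were, and 5 lower, where 12.8% were. With total counts the share of higher calls among all rows went from 41.7% to 29.9%, and the 10 genes kept their calls.

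The endothelial genes did not fall alike in the lineage. Gja4 stood at 4.84% of its brain translatome level, below the 11.3% of the summed endothelial markers, whereas Notch4 stood at 35.7%, Dll4 at 38.5%, Jag2 at 57.1% and Jag1 at 65.5%. Counts for these genes in the lineage were low but well above 0, with 239 to 565 reads for Notch4, 148 to 330 for Dll4 and 27 to 90 for Gja4. By the study's staining, endothelial cells of Emx1Cre forebrains had no detected mCherry-Rpl10a protein. Which cells the reads of these genes came from was not tested. All 10 endothelial markers were lower, with a median log2 fold change of -3.84, and 5 of them had a mean under 1 RPKM.

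Of the 36 other pathway genes 5 rose in the lineage, where 9.2% of all rows did, and 6 fell, where 12.8% did. With a filter of 10 counts in 3 samples or in 1 fit of 21 samples 2 rose, and with total counts 3. Rbpj, the nuclear partner of Notch, rose by 0.64 ± 0.10, Notch2 by 0.32 ± 0.05, Dtx1 by 0.27 ± 0.04 and Snw1 by 0.25 ± 0.05. Heyl fell by 4.13 ± 0.10, Dlk1 by 2.42 ± 0.08, Dtx4 by 0.62 ± 0.05 and Maml3 by 0.45 ± 0.06, and Notch3 fell by 0.44 ± 0.07. Dll3 was not called (-0.15 ± 0.07, adjusted p = 0.085). Mural markers were lower too (8 of 9, summed level 7.394 to 8.274 RPKM against 47.6 to 66.0), and their part in the fall of Heyl and Notch3 was not tested. Efnb2 (0.53 ± 0.05) and the guidance receptor Nrp1 (0.37 ± 0.05) were the 2 arterial genes that rose, and 6 of the 9 fell, of which Unc5b (-0.56 ± 0.05) had a mean above 5 RPKM.

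Set directly against the Emx1 lineage, brain EC separated the genes further. Gja4 differed by a log2 fold change of 8.49 ± 0.11 (SE, adjusted p = 4.1e-14), Notch4 by 5.78 ± 0.08, Dll4 by 5.51 ± 0.08, Jag2 by 3.74 ± 0.07 and Jag1 by 3.18 ± 0.07. Notch1 (1.32 ± 0.06), Hey1 (0.84 ± 0.06) and Hes1 (0.78 ± 0.08) were higher in brain EC to a lesser degree, Hey2 was not called (0.48 ± 0.12, adjusted p = 4.4e-03), and Dll1 was lower (-1.31 ± 0.06). This gave 8 genes higher, where 25.9% of all rows were, and 1 lower, where 25.2% were. With total counts the all-row median shifted by -0.23 and higher calls went from 50.7% to 38.9%, with no change in the calls of the 10 genes. Endothelial ligands and Notch4 thus separated the endothelial from the neural samples more than the target genes did.

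Whole forebrain and whole kidney were compared in their translatomes. Jag1 was lower in the forebrain by a log2 fold change of -2.43 ± 0.06 (SE, adjusted p = 2.1e-13), Hes1 by -1.21 ± 0.09 and Notch4 by -0.96 ± 0.08. Dll4 (-0.64 ± 0.12, adjusted p = 2.5e-04), Hey2 (-0.50 ± 0.10, adjusted p = 6.2e-04) and Hey1 (-0.47 ± 0.06) were also lower in the forebrain. Jag2 (1.23 ± 0.08) and Dll1 (0.96 ± 0.09) were higher in the forebrain, and Gja4 (-0.29 ± 0.08, adjusted p = 5.2e-03) and Notch1 (-0.09 ± 0.06, adjusted p = 0.19) were not called. These are 2 genes higher, where 27.2% of all rows were, and 6 lower, where 26.2% were. With total counts Gja4 and Notch1 were called lower in the forebrain as well, so whether they are called rests on the scaling. Summed endothelial markers were 189.1 to 211.6 RPKM in the forebrain and 428.3 to 457.8 in the kidney, and the part of that difference in the lower Notch4 and Dll4 was not tested. The brain and kidney orders of Jag1 and Jag2 were thus opposite.

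Ribosome-bound and total RNA came from the same tissue samples. Notch1 was lower in the brain translatome than in the transcriptome by a log2 fold change of -1.33 ± 0.06 (SE, adjusted p = 7.4e-10), and in the kidney by -0.86 ± 0.04 (adjusted p = 9.0e-08). Its values did not overlap in either organ. Notch2 moved with it, at -1.22 ± 0.06 in the forebrain and -0.67 ± 0.05 in the kidney, whereas Notch3 was at 0.09 ± 0.08 and 0.54 ± 0.08 and Notch4 was not called in either (-0.10 ± 0.08 and -0.16 ± 0.07). Jag1 was lower by -0.53 ± 0.07 in the forebrain and -0.53 ± 0.05 in the kidney. Gja4 was the only 1 of the 10 higher in the translatome, by 0.75 ± 0.10 in the forebrain and 0.71 ± 0.07 in the kidney. This was not particular to Gja4. Of the 10 endothelial markers, 5 were higher and 0 lower in the forebrain (median log2 fold change 0.52). In the kidney 6 were higher and 0 lower (median 0.38).

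In the forebrain Jag2 (-0.58 ± 0.06) and Dll1 (-0.41 ± 0.06) were also lower, which made 1 gene higher, where 18.6% of all rows were, and 4 lower, where 18.5% were. In the kidney 1 was higher, where 14.9% of rows were, and 2 lower, where 15.8% were. With the tissue sample as a block the kidney gave 2 higher and 3 lower, as Hey2 (0.26, adjusted p = 4.1e-04) and Dll1 (adjusted p = 8.0e-19) joined. The block set the spread of every kidney row to the trend, so that p-value uses the trend and not the spread of Dll1.

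The choice of reference therefore moved Notch1 more than any other of the 10 genes. Against the brain transcriptome, brain EC was at a log2 fold change of 0.24 ± 0.08 for Notch1 (SE, adjusted p = 0.018), compared with the 1.55 found against the translatome, and the call was lost. Against the kidney transcriptome Notch1 stayed called at 0.75 ± 0.05 (adjusted p = 4.7e-07). Gja4 went the other way, to 5.02 ± 0.11 in the forebrain and 3.39 ± 0.05 in the kidney. Jag1 in the kidney turned to a called decrease of -0.46 ± 0.07 (adjusted p = 1.7e-04), and Hey2 in the kidney was no longer called (-0.21 ± 0.09, adjusted p = 0.078). Against total RNA, 7 of the 10 genes were higher in brain EC, where 26.8% of rows were, and 1 lower, where 24.3% were. In kidney EC 6 were higher, where 22.7% of rows were, and 1 lower, where 18.4% were.

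**Figure D4:**
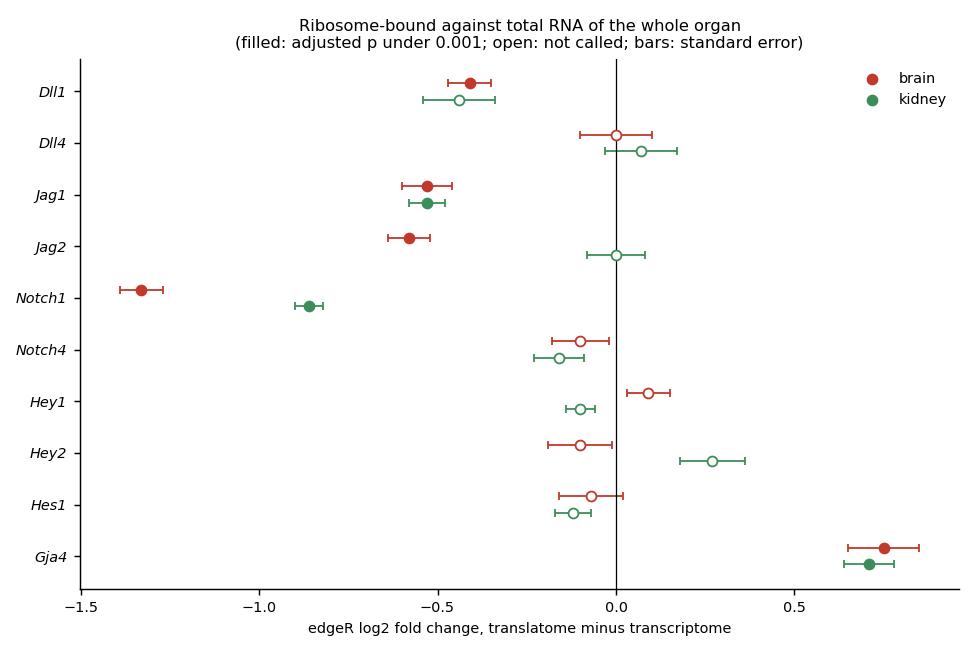
Log2 fold change of each of the 10 genes in ribosome-bound against total RNA of the whole organ (horizontal axis; edgeR, 3 against 3 samples) in forebrain (red) and kidney (green). Bars are the standard error, filled points are called at an adjusted p under 0.001. Notch1 lies farthest to the left in both organs (-1.33 and -0.86) and Gja4 is the only called gene to the right (0.75 and 0.71).

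The promoters of the 3 genes most enriched in brain EC, and of Hey2 as the Notch target that was not, are shown because these genes differ so widely in the same samples. The letters are the bases upstream of the annotated start in RefSeq GRCm38.p6, on the strand of the gene and 5′ to 3′, with matches of the motifs searched in capitals. The promoter table held 8 of the 10 genes, all but Hey1 and Hes1.

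Dll4: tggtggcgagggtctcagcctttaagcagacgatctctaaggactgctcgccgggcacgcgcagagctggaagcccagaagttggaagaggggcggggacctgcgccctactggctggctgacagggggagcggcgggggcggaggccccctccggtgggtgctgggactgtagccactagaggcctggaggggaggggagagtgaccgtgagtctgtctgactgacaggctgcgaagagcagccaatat
Notch4: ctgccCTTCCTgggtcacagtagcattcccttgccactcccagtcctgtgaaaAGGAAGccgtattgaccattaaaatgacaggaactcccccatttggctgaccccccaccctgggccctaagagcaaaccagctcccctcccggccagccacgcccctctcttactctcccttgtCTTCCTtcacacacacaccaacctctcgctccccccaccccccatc
Gja4: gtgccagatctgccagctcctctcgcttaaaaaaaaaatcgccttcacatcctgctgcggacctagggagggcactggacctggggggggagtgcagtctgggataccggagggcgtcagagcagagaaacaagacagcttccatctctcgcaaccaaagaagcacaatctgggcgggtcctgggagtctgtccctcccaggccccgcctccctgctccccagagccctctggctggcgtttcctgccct
Hey2: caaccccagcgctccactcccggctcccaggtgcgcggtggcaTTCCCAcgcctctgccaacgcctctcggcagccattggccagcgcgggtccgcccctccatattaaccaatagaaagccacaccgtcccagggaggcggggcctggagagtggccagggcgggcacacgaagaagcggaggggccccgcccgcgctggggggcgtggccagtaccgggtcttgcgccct

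The Dll4 stretch is chr2:119325534-119325783 on the plus strand, that of Notch4 chr17:34564045-34564267 on the plus strand, that of Gja4 chr4:127314040-127314289 on the minus strand and that of Hey2 chr10:30842802-30843033 on the minus strand. In the 250 bases before and 50 after each start, on both strands, the search covered 4 fixed strings of letters. They were the RBPJ string TGGGAA, the ETS string AGGAAG, the SOX string AACAAT and the E-box string CACGTG. These occur in 25.6%, 35.4%, 10.7% and 7.15% of 32851 promoters. Each is only 1 form of its motif, and other forms, such as the shorter ETS core GGAA, were not searched. Notch4 held 4 ETS strings, 3 of them in the printed bases. Hey2 held 2 RBPJ strings, 1 of them in the printed bases, and Dll1 held 1 ETS string. The windows of Dll4, Jag1, Jag2, Notch1 and Gja4 had no match to these letters. The Notch1 window lies around a start at base 26503822 of chromosome 2, inside the gene as placed below, and Dll1 had a pair of windows, of which the one with the match lies around base 15375823 of chromosome 17, inside the gene at chr17:15367354-15376872. None of the matches overlapped another, and a match is a description of letters and not a binding site.

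All 10 genes are protein coding and lie on GRCm38. Dll4 is at chr2:119325784-119335962, Notch4 at chr17:34564268-34588503, Notch1 at chr2:26457903-26516663, Jag1 at chr2:137081456-137116644 and Gja4 at chr4:127311421-127314039. The libraries did not record strand, so reads of Dll4 and its antisense partner Gm14207, of Dll1 and A930024N18Rik, of Notch4 and Gm20462, and of Notch1 and 0610009E02Rik or Gm13568 cannot be told apart where they overlap. The values of these 4 genes hold any such reads.

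Across the 7 group means, each gene was also set against 11841 rows by the Pearson correlation of log2(RPKM + 1). The values are a description only, since all rows of a sample share its depth and tissue. Closest to Dll4 were Mmrn1 (r = 0.9981), Pik3cg (0.998) and Exoc3l (0.9973). Closest to Notch4 were BC020535 (0.9991), Pik3r6 (0.999) and Pcdh12 (0.9986), and closest to Gja4 were Ecscr (0.9966), Fxyd5 (0.9963) and Esam (0.9959). Over the 21 samples Notch4 itself was the third row closest to Dll4 (0.9952). The nearest rows to Notch1, Hey1 and Hey2 were less close, with Jmjd1c for Notch1 (0.9777), Ubn1 for Hey1 (0.966) and Notch3 for Hey2 (0.9779). For the rest they were Flcn for Dll1 (0.9967), C77080 for Jag1 (0.9965), Rapgef4 for Jag2 (0.9968) and Pip5k1a for Hes1 (0.9921).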

How the data were processed

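RNA of 7 groups of 3 mouse samples was sequenced from unstranded libraries. The authors mapped the reads to GRCm38 (mm10), counted reads per RefSeq gene and deposited for each sample a read count and an RPKM value per gene row (reads scaled by gene length and by the mapped reads of the library). RPKM values were used as deposited. Counts were fitted here with edgeR 4.0.16 in R 4.3.3: the quasi-likelihood test, TMM normalization, all rows with at least 1 count in the samples fitted, pairs of groups at 3 against 3, Benjamini-Hochberg adjustment over all rows and a call at an adjusted p under 0.001. Standard errors were derived from the test statistic. The script was tested on simulated data. DESeq2 1.42.0, other scalings, a filter of 10 counts in 3 samples, a replicate block, 1 fit of all samples, other thresholds and leaving out each sample were tried as alternatives.

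The 10 genes and the lists beside them were chosen with earlier results of these data known. The text names the 10 genes, Notch2, Notch3 and Dll3, and from each list up to 4 called genes per direction with a mean of at least 5 RPKM in 1 group compared. The replicates of a group were separate tissue samples, each pooled from several brains or kidneys per the study's sample list. Translatome and transcriptome libraries of the same number came from the same tissue, and the deviations of these pairs correlated at 0.608, 0.505 and 0.618 in the forebrain and 0.622, 0.517 and 0.571 in the kidney. Brain EC and kidney EC of the same number correlated at 0.263, 0.174 and 0.14, and the replicate block treated them as paired. The labels do not state this pairing, and brain and kidney translatomes of different numbers reached 0.323. In the kidney the blocked fit of translatome against transcriptome took its dispersions from the trend alone. Replicates of a group correlated at 0.9965 to 0.9992 and differed by more than sampling noise, so none was a copy of another. Gene positions and overlaps are from GENCODE M21.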

Additional observations from a re-analysis of the deposited data

Results flagged for a closer look

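The difference between forebrain and kidney in endothelial enrichment was past the threshold for 8 of the 10 genes (edgeR interaction test over 12 samples, brain minus kidney log2 fold change). It was 2.68 for Jag1, 1.66 for Gja4, 1.47 for Notch4, 1.41 for Hes1, 1.12 for Dll4, 0.96 for Hey2, 0.90 for Hey1 and -1.23 for Dll1. All 10 endothelial markers differed in the positive direction too, with a median of 1.54, and 16.5% of all rows were called in that direction.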

How the results depend on the processing

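Of 1160 values of single genes under an alternative, 1073 kept their direction and their side of the threshold, 24 changed sign, 46 lost their call and 17 gained one. With total counts kidney EC against kidney translatome gave 2 genes lower in place of 1, Jag1 beside Hey2. Without a call, Dll1 changed sign to -0.02 and Hes1 to -0.23, and Dll1 to -0.02 also with the transcriptome as reference. The replicate block gave 0 lower there, 2 higher for brain EC against kidney EC and 2 higher for kidney translatome against transcriptome, and changed no other count of the 10 genes by over 1.5 times. In the Emx1 lineage it left 2 other pathway genes higher in place of 5. Brain EC against kidney EC gave 2 higher with total counts or the stricter filter, and 7 higher and 0 lower in 1 fit of 21 samples. With a single sample left out it gave 2 higher and 0 lower each time, and kidney EC against kidney translatome gave 0 lower each time. An adjusted p under 0.05 gave 2 higher for kidney translatome against transcriptome.

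A further requirement of 2-fold left 0 lower in brain EC against brain translatome, 0 lower in kidney EC against kidney translatome, 2 higher and 0 lower in brain EC against kidney EC, 0 higher and 3 lower in the Emx1 lineage, 1 higher and 2 lower in brain against kidney translatome, 0 higher and 1 lower in brain translatome against transcriptome, and 0 of each in the kidney. Values near 0 changed sign. Dll4 in brain translatome against transcriptome was -0.02 with DESeq2, RLE size factors, total counts or the stricter filter, -0.03 in 1 fit and -0.05 to 0.06 with a sample left out. Notch1 in the organ difference was -0.05 with DESeq2 and with RLE size factors and -0.02 to 0.08 with a sample left out. With a sample left out, Jag1 in kidney EC ran from -0.07 to 0.04, Hes1 in brain translatome against transcriptome from -0.21 to 0.01, and in the kidney Dll4 from -0.05 to 0.14 and Jag2 from -0.04 to 0.04. The cause was not tested.

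Over all rows, the replicate block called 1116 higher in the Emx1 lineage in place of 1749, and leaving out Emx1-lineage replicate 1 or 2 called 1138 or 1110. It called 4636 higher and 4860 lower in kidney translatome against transcriptome in place of 2880 and 3049. Total counts called 1564 higher and 5655 lower in kidney EC against kidney translatome in place of 3163 and 2837. DESeq2 called 2724 lower in the organ difference in place of 1700, and higher calls were 55.5% of its calls in place of 65.7%. The numbers do not pair brain EC or kidney EC with its organ translatome, nor the Emx1 lineage with the forebrain groups, nor the organ translatomes.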

Other observations

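Venous and lymphatic genes, which mark vessels other than arteries, were also high in the endothelial samples. Of 5 such genes, 4 were higher in brain EC than in the brain translatome, where 24.8% of all rows were, and 1 lower, where 21.4% were. The kidney gave the same counts, where 16.7% of all rows were higher and 15.0% lower. The apelin receptor gene Aplnr rose by a log2 fold change of 4.81 ± 0.11 (SE) in the forebrain and 2.93 ± 0.12 in the kidney, the lymphatic receptor gene Flt4 by 4.65 ± 0.08 and 3.09 ± 0.07, and the venous receptor gene Ephb4 by 3.16 ± 0.07 and 1.38 ± 0.06. Nr2f2, a transcription factor of veins that many other cells express, was lower in both (-0.48 ± 0.07 and -1.05 ± 0.07). Between the endothelial groups, Flt4 (-0.91 ± 0.07), Nr2f2 (-0.89 ± 0.07) and Ephb4 (-0.72 ± 0.07) were lower in brain EC, where 16.9% of all rows were, and none of the 5 was higher.

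Among the Hes and Hey genes (Hes1, Hes5, Hes6, Hey1, Hey2 and Heyl), not all of them Notch targets, the make-up differed between the settings. Hes6 took 67.92 ± 0.287% (SD, n = 3) of their summed RPKM in the brain translatome and 30.09 ± 0.946% in brain EC, where Hey1 led with 34.67 ± 1.04%. In kidney EC Hey1 led with 36.72 ± 0.618%, and Hes1 followed with 31.9 ± 0.568%. Heyl held 17.9 ± 2.0% of the sum in the kidney translatome and 4.621 ± 0.946% in kidney EC.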
